A study of Mus musculus with 16 samples.

Results

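The enzymes of glycolysis come in isoforms that are encoded by separate genes. The 10 genes described here are Aldoa and Aldoc (aldolase), Eno1 and Eno2 (enolase), Ldha and Ldhb (lactate dehydrogenase), Pfkp and Pfkm (phosphofructokinase), Pkm (pyruvate kinase) and Hk1 (hexokinase), of 53379 genes in the files. They were chosen by gene symbol.

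RNA-seq libraries had been made from mouse neocortex at postnatal day 4; the labels give the strain as CD1, and the study's methods a background mixed from CD1 and C57BL/6. All animals carried MADM cassettes on chromosome 7 (MADM7-GT/TG), Emx1-cre, which acts in the dorsal forebrain lineage, and XGFAP-lacZ, in which the human GFAP promoter drives lacZ. MADM produces sparse GFP+ cells through recombination between homologous chromosomes, and such cells hold both copies of chromosome 7, where Aldoa and Ldha lie, from 1 parent. In control-MADM animals the GFP+ cells were Eed+/+; in animals labelled MADM7-GT/TG,Eed, which are heterozygous for Eed as a whole, they were Eed−/− and so lacked a core subunit of Polycomb repressive complex 2. GFP+/lacZ+ cells are labelled astrocytes and GFP+/lacZ− cells are labelled neurons, which gave 5 Eed+/+ and 5 Eed−/− astrocyte libraries and 2 Eed+/+ and 3 Eed−/− neuron libraries. Per the study's methods, each replicate of this sort came from 1 animal.

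Glycolysis turns glucose into pyruvate, and lactate dehydrogenase interconverts pyruvate and lactate. Astrocytes are known for high glycolytic flux and for releasing lactate, and Aldoc (also called zebrin II) is a classical astrocyte and Purkinje cell marker, while Eno2 encodes neuron-specific enolase. The A subunit of lactate dehydrogenase is held to favour lactate formation and the B subunit its oxidation. The members lie on GRCm38 as follows. Aldoa (ENSMUSG00000030695.16) spans chr7:126795234-126800751 and Aldoc (ENSMUSG00000017390.15) chr11:78322968-78327781. Eno1 (ENSMUSG00000063524.13) spans chr4:150236721-150248879 and Eno2 (ENSMUSG00000004267.16) chr6:124760053-124769673. Ldha (ENSMUSG00000063229.15) spans chr7:46841475-46855627 and Ldhb (ENSMUSG00000030246.11) chr6:142490249-142507957. Pfkp (ENSMUSG00000021196.14) spans chr13:6579768-6648777 and Pfkm (ENSMUSG00000033065.13) chr15:98092589-98132451. Pkm (ENSMUSG00000032294.17) spans chr9:59656368-59679375 and Hk1 (ENSMUSG00000037012.18) chr10:62268855-62379908. Reads were counted over the exons of each gene. Isoform ratios within a library do not depend on library scaling, which is why they are given beside the level of each gene.

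Library quality bears on every value. Counts summed over genes ranged from 211736 to 3178529, and 10 of the 15 libraries had at least 1000000 uniquely aligned reads and at least 60% of reads uniquely aligned; these are called within the limits below. Outside them were Eed−/− astrocyte libraries 1, 3 and 4, Eed+/+ astrocyte library 3 and Eed+/+ neuron library 2. Markers of other cells stood out in the first set: summed over 6 microglia markers, Eed−/− astrocyte libraries 1 and 3 held 6383 and 2173 TMM-scaled CPM (counts per 1000000 counts in genes), and summed over 4 erythroid markers libraries 1 and 4 held 5857 and 7185, against at most 289 and 27.0 CPM in any library within the limits. The targeted gene, Eed, lay at 28.5 to 76.5 CPM in the Eed+/+ astrocyte libraries within the limits, at 14.3 and 17.4 in the Eed−/− ones, and at 65.4 in the Eed+/+ against 16.5 to 38.2 in the Eed−/− neuron libraries. Outside the limits, Eed+/+ astrocyte library 3 had 2 Eed reads (3.77 CPM), below both of those Eed−/− astrocyte libraries. Eed−/− astrocyte libraries 1, 3 and 4 had 0 reads, and Eed+/+ neuron library 2 had 26 (82.8 CPM). Genotypes are given as labelled. Reads outside the deleted part of the gene are included.

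The markers differed between the populations in level, and the libraries labelled neurons held those of several cell types. Over 12 astrocyte markers, which do not include any of the 10 genes, the sum was 8531 to 14283 CPM in the 4 neuron libraries within the limits and 20494 to 50574 in the 6 astrocyte libraries, so that the groups did not overlap, but none of the 12 was at 0 in the former. Aqp4, the astrocytic water channel, stood at 1049 to 2909 CPM in the astrocyte libraries and at 473 to 726 CPM in the neuron libraries. Over 12 neuron markers the sums overlapped, with 1644 to 2858 CPM in the neuron libraries and 265 to 2965 CPM in the astrocyte libraries. Tubb3, a neuronal tubulin, had 547 to 1344 CPM in the former and 48.7 to 1339 CPM in the latter, and Rbfox3, which encodes the nuclear antigen NeuN, 10.3 to 97.8 and 0 to 43.8 CPM. Outside the limits, the astrocyte marker sum was 5200 CPM in Eed+/+ astrocyte library 3 and 10426 in Eed+/+ neuron library 2. It was 4655, 23682 and 7256 CPM in Eed−/− astrocyte libraries 1, 3 and 4. Eed+/+ astrocyte library 3 and Eed−/− astrocyte libraries 1 and 4 thus lay below every neuron library. The highest neuron marker sum of the 15 libraries was that of Eed+/+ astrocyte library 3, at 3618 CPM. Over all 15 libraries the log2 fold change was below 0 in neuron libraries for 10 of the 12 astrocyte markers and above 0 for 8 of the 12 neuron markers. Over 7 markers of the oligodendrocyte lineage the neuron libraries within the limits held 2474 to 3851 CPM and the astrocyte libraries 1343 to 5208 CPM. Over 4 markers of intermediate progenitors, all with a log2 fold change above 0, the sums were 277 to 542 and 59.1 to 555 CPM. None of the 24 astrocyte and neuron markers passed edgeR's quasi-likelihood test at an adjusted p of 0.05 between the cell types. The populations are called by their sort below, GFP+/lacZ− for the libraries labelled neurons. In bulk samples, fewer cells of a type and less RNA per cell cannot be told apart.

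**Figure D1:**
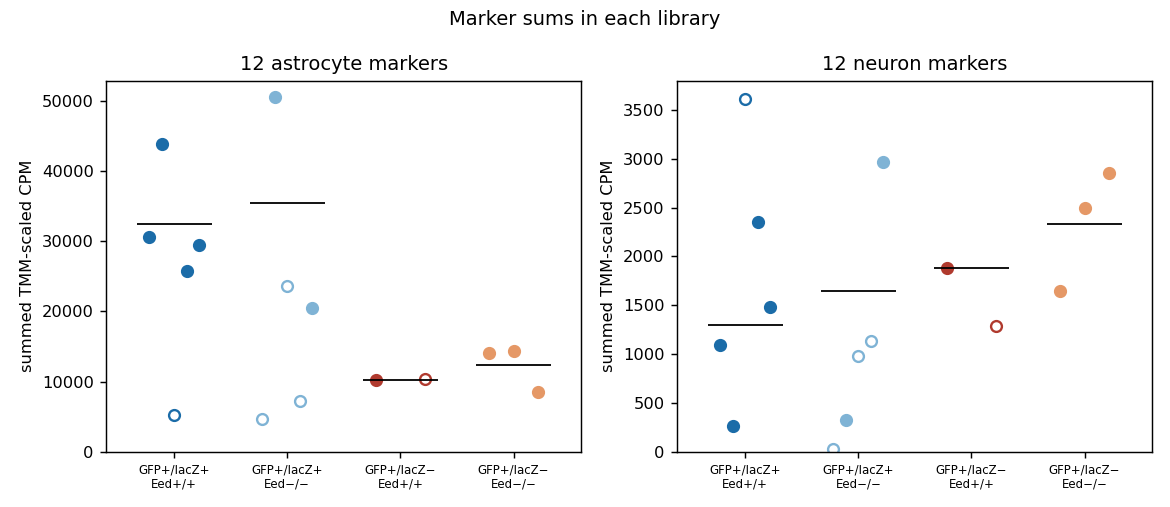
Summed TMM-scaled CPM of 12 astrocyte markers (left) and 12 neuron markers (right), 1 point per library, by sorted population and Eed genotype. Filled points are libraries within the limits, open points those outside, and lines are means within the limits. Astrocyte marker sums within the limits start at 20494 CPM in GFP+/lacZ+ libraries and end at 14283 CPM in GFP+/lacZ− libraries, while the neuron marker sums overlap.

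The stretches before the start sites of Aldoa, Aldoc and Ldha are shown because the aldolase pair was the one that did not overlap between the populations within the limits and because Ldha holds the most copies of the motif searched. Each run is the 250 bases before a RefSeq start site (GRCm38.p6), written 5′ to 3′ on the strand of the gene. Capitals mark ACGTG or its reverse complement CACGT, a form of the core of hypoxia response elements. Other forms of that core were not searched and are not marked, so the counts below are of ACGTG and CACGT only. The E-box CACGTG contains both of these, so the motifs overlap there and are counted on each strand. The Aldoa stretch is chr7:126799255-126799504 (minus strand), that of Aldoc chr11:78322823-78323072 and that of Ldha chr7:46845554-46845803 (both plus strand).
Aldoa: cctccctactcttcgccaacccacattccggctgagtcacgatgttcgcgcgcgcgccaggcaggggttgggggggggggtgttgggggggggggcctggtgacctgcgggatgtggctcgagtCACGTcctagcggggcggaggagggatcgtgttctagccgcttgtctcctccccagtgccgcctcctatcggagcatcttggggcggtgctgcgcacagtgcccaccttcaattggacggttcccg
Aldoc: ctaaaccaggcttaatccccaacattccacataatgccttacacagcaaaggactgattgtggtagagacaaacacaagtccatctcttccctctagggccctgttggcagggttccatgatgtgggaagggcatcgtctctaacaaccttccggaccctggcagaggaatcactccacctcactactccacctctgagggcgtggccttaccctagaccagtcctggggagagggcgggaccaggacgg
Ldha: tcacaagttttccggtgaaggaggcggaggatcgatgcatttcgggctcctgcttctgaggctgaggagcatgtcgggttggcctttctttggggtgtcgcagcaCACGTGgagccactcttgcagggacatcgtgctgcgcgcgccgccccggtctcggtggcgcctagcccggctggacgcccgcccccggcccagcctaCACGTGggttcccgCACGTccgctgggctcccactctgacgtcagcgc
The Aldoa stretch held 1 match, the Ldha stretch 5 and neither of the 2 Aldoc stretches any. All 10 genes were found in the RefSeq promoter table, and 4 of them (Aldoa, Ldha, Pfkm and Pkm) held the motif in at least 1 of their stretches, beside 18.5% of all 27025 genes. By stretch the count was 6 of 21, or 28.6%, beside 16.6% of all 32851 stretches of the same length. A match of letters is a description of the sequence and shows no binding.

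Among the 4 ratios, only that of the aldolases did not overlap between the sorted populations within the limits. These limits were chosen with earlier results of these data known, and how often other pairs of genes separate these libraries was not counted. Aldoa encodes the muscle-type and widely expressed aldolase, and Aldoc the brain-type enzyme. In GFP+/lacZ+ Eed+/+ libraries 1, 2, 4 and 5 there were 957, 2155, 1425 and 964 Aldoa reads beside 3773, 8914, 6225 and 4193 Aldoc reads, and in Eed−/− libraries 2 and 5 there were 1442 and 320 beside 5302 and 1169. In these 6 libraries Aldoa made up 18.6% to 21.5% of the reads of the pair, and exact (Clopper-Pearson) 95% intervals for single libraries ran from 17.6% to 23.7%. In the GFP+/lacZ− libraries within the limits Aldoa had 631 reads (Eed+/+ 1) and 657, 1011 and 382 reads (Eed−/− 1, 2 and 3) beside 1386, 1173, 2136 and 781 of Aldoc, so that its share was 31.3% to 35.9%, with intervals from 29.3% to 38.1%. No GFP+/lacZ− library reached down to any GFP+/lacZ+ library here, and the intervals, which cover counting error only, did not meet.

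As a log2 ratio of reads per kb of exon, Aldoa to Aldoc was −1.84 ± 0.11 (SD, n = 6) in GFP+/lacZ+ and −0.86 ± 0.13 (SD, n = 4) in GFP+/lacZ− libraries within the limits. The difference was 0.98, or 1.98-fold (two-sided exact permutation p 0.00952, the smallest that 6 against 4 libraries can give). Over all 15 libraries the difference was −0.06 (two-sided exact permutation p 0.701). Of the libraries outside the limits, Eed−/− astrocyte library 1 had 91 Aldoa reads and 1 Aldoc read (log2 ratio 6.10), and library 4 had no read of either gene, so that its ratio of 0.16 was set by the pseudocount and the gene lengths alone. Without Eed−/− astrocyte library 1 the difference was 0.70 (exact permutation p 0.0519). The remaining libraries outside the limits gave shares of 29.9% (Eed+/+ astrocyte 3, interval 25.1% to 35.1%), 22.4% (Eed−/− astrocyte 3) and 37.0% (Eed+/+ GFP+/lacZ− 2, 26.0% to 49.1%). The first of these is closer to the GFP+/lacZ− libraries than to the other astrocyte libraries.

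The same direction held in both genotypes among the libraries within the limits. The difference was 0.93 within Eed+/+ (4 libraries against 1) and 0.89 within Eed−/− (2 against 3), where the smallest two-sided exact permutation p possible is 0.4 and 0.2, so neither could pass. Over all Eed+/+ libraries it was 0.95, with no overlap between 5 and 2 libraries (exact permutation p 0.0952, again the smallest possible). Over all Eed−/− libraries, with those outside the limits, the sign was the opposite, −1.06 (5 against 3; exact permutation p 0.893), and without library 1 it was 0.40. Between genotypes, within the limits, Eed+/+ astrocytes had a ratio of −1.90 ± 0.070 (SD, n = 4) and both Eed−/− libraries lay near −1.71 (SD 0.0075, n = 2). The difference was 0.20 (exact permutation p 0.133, the smallest possible). Over all 5 against 5 astrocyte libraries it was 1.98 (exact permutation p 0.175), a value that rests on Eed−/− library 1: without it the difference was 0.52 (exact permutation p 0.349), and without Eed+/+ library 3 it was 2.15 (exact permutation p 0.0159). In GFP+/lacZ− libraries the genotype difference was −0.04 (2 against 3; exact permutation p 1, smallest possible 0.2).

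**Figure D2:**
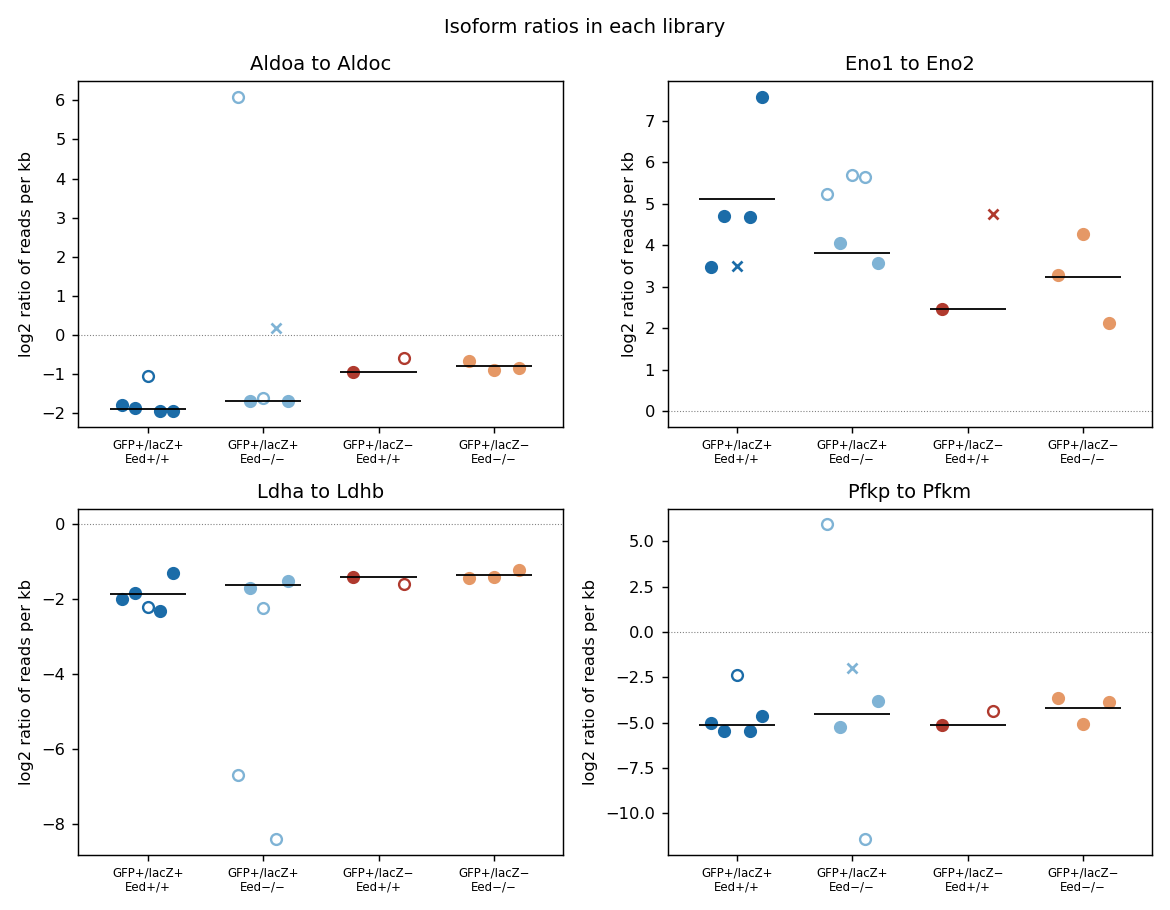
Log2 ratio of reads per kb of exon for 4 isoform pairs, 1 point per library, by sorted population and Eed genotype. Filled points are libraries within the limits, open points those outside, crosses libraries with fewer than 20 reads for the pair, and lines are means within the limits. For Aldoa to Aldoc the filled points lie between −1.96 and −1.70 in GFP+/lacZ+ and between −0.97 and −0.67 in GFP+/lacZ− libraries, while the open points of Eed−/− astrocytes spread widely in 3 of the 4 pairs.

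The level of Aldoc moved more than that of Aldoa. Aldoc had 1991, 3343, 2887 and 2916 CPM in Eed+/+ astrocyte libraries 1, 2, 4 and 5 and 3539 and 1191 CPM in Eed−/− libraries 2 and 5. The GFP+/lacZ− libraries within the limits held 749 CPM (Eed+/+ 1) and 924, 1103 and 496 CPM (Eed−/− 1 to 3). Every GFP+/lacZ− library was thus below every GFP+/lacZ+ library, though the lowest astrocyte and the highest GFP+/lacZ− library lay at 1191 and 1103 CPM. Of the 10 genes Aldoc was the only one lower without overlap and none was higher without overlap, beside 1.55% and 2.06% of the 13367 genes tested. The sum of the 12 astrocyte markers separated the same libraries in the same direction; its part in the Aldoc result was not tested. Aldoa itself had 326 to 963 CPM in the 6 astrocyte libraries and 243 to 522 CPM in the 4 others, which overlap.

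By edgeR over all 15 libraries, Aldoc was lower in GFP+/lacZ− libraries by a log2 fold change of −1.49 (SE 0.80) and did not pass (adjusted p 0.930). The median of all genes shifted by 0.34 in this fit, and relative to it Aldoc stood at −1.83. Among the libraries within the limits the log2 fold change of Aldoc was −1.66 (SE 0.43; unadjusted p 0.00174, adjusted p 0.4999 by edgeR), −1.82 relative to a median of 0.16. For Aldoa the values were −0.63 (SE 0.89) over all libraries and −0.75 (SE 0.40) within the limits. Over all libraries, leaving out Eed+/+ GFP+/lacZ− library 1 gave −2.30 for Aldoc and −1.30 for Aldoa, and Aldoa was at −0.28 without library 2 of that group and at −0.31 without Eed−/− astrocyte library 2.

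None of the 10 genes was called between the sorted populations by edgeR at an adjusted p of 0.05 (0 of 10, beside 0.015% of the 13367 genes tested), and none had an unadjusted p under 0.05 (beside 5.51%). DESeq2 called 0 of 10 as well (beside 0.0374%), with 0 at an unadjusted p under 0.05 (beside 5.92%). Within the limits 2 of 10, Aldoc and Pfkm, had an unadjusted p under 0.05, beside 7.69% of genes, and none was called. The log2 fold change was below 0 for 9 of the 10 genes and above 0 for Eno2 in both fits, with medians over the members of −0.53 and −0.66 beside 0.34 and 0.16 over all genes. Over all 15 libraries the direction differed by genotype. Within Eed+/+ 9 of the 10 genes were below 0 (median −1.20, beside −0.08 over all genes). Within Eed−/− 3 were below 0 and 7 above (median 0.20, beside 0.72). With only the libraries within the limits, 7 were below 0 and 3 above within Eed−/− (median −0.52, beside 0.17). Within Eed+/+ and within Eed−/− the test called 0 of 10 (beside 0.00748% and 0.0598% of genes), with 0 at an unadjusted p under 0.05 (beside 2.29% and 7%). The interaction of population and genotype called 0 of 10 (beside 0.0524%) and had 0 at an unadjusted p under 0.05 (beside 3.61%). DESeq2 also called 0 of 10 within Eed+/+, within Eed−/− and for the interaction (beside 0.0598%, 0.0898% and 0.0374% of genes), with 0 at an unadjusted p under 0.05 (beside 3.33%, 5.58% and 3.45%).

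**Figure D3:**
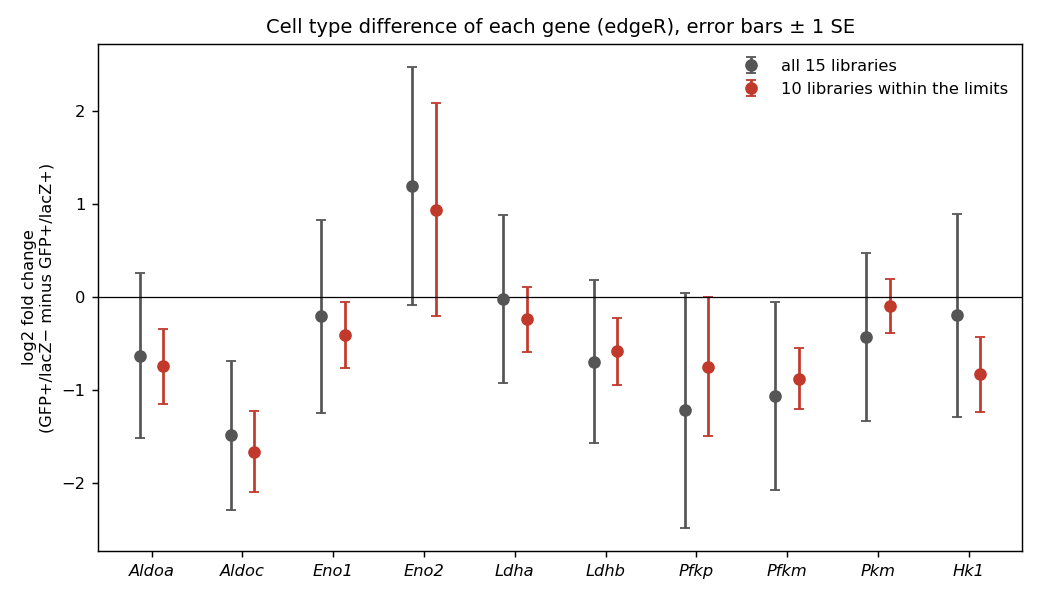
Log2 fold change of each gene between GFP+/lacZ− and GFP+/lacZ+ libraries by edgeR, with error bars of 1 SE, over all 15 libraries (grey) and the 10 within the limits (red). Aldoc lies lowest in both fits, at −1.49 and −1.66, Eno2 alone lies above 0, and the error bars are shorter within the limits for all 10 genes.

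The lactate dehydrogenase ratio differed in the same direction as the aldolase ratio, with a size that depended on the libraries. Within the limits Ldha made up 34.8%, 37.2%, 29.9% and 46.0% of the reads of the pair in Eed+/+ astrocyte libraries 1, 2, 4 and 5 and 39.6% and 42.4% in Eed−/− libraries 2 and 5. Its share was 44.3% in GFP+/lacZ− library Eed+/+ 1 and 43.8%, 44.6% and 47.7% in Eed−/− 1 to 3. The groups overlapped through 1 library, Eed+/+ astrocyte 5. Per kb the log2 ratio of Ldha to Ldhb was −1.77 ± 0.35 (SD, n = 6) and −1.36 ± 0.10 (SD, n = 4), a difference of 0.41 (two-sided exact permutation p 0.0476). Over all 15 libraries the difference was 1.61 (exact permutation p 0.00799), and it included Eed−/− astrocyte libraries 1 and 4, with 5 and 0 Ldha reads beside 269 and 79 Ldhb reads. Without library 1 it was 1.20 and without library 4 it was 1.01 (exact permutation p 0.0120 in each case). Within Eed−/− alone the difference was 2.76 with no overlap between 5 and 3 libraries (exact permutation p 0.0357, the smallest possible), but 0.26 within the limits (2 against 3; exact permutation p 0.2, the smallest possible); within Eed+/+ it was 0.43 (5 against 2; exact permutation p 0.286).

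Between genotypes, the Ldha to Ldhb ratio differed by −2.17 in astrocytes (5 against 5; exact permutation p 0.302) and by 0.25 within the limits, a change of sign. The genotype difference in GFP+/lacZ− libraries was 0.16 (2 against 3; exact permutation p 0.4), and it was 0.25 without Eed+/+ library 1, 0.060 without Eed+/+ library 2 and 0.089 without Eed−/− library 3. The levels of the subunits overlapped between the populations. Ldha had 307 to 512 CPM in the 6 astrocyte libraries within the limits and 258 to 582 CPM in the 4 GFP+/lacZ− libraries, and Ldhb had 439 to 863 and 283 to 723 CPM. Their log2 fold changes within the limits were −0.24 (SE 0.35) and −0.58 (SE 0.36). Of the 50-base stretches of their transcripts, 16.7% and 27.0% also occur in other transcripts.

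The enolase ratio was limited by Eno2, the neuronal isoform, which had 0 to 18 reads in GFP+/lacZ+ and 0 to 29 reads in GFP+/lacZ− libraries. It had no read in 5 of the 10 astrocyte libraries (Eed+/+ 3 and 5, Eed−/− 1, 3 and 4) and in 1 of the 5 GFP+/lacZ− libraries (Eed+/+ 2). In Eed+/+ astrocyte libraries 1, 2, 4 and 5 there were 18, 15, 9 and 0 Eno2 reads beside 234, 461, 277 and 109 of Eno1, the ubiquitous isoform, and in Eed−/− libraries 2 and 5 there were 13 and 10 beside 255 and 142. GFP+/lacZ− libraries had 27 reads beside 173 (Eed+/+ 1) and 12, 12 and 29 beside 138, 276 and 147 (Eed−/− 1 to 3). Eno1 therefore made up 92.9% to 100% of the pair in the former and 83.5% to 95.8% in the latter, which overlap.

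In the 6 libraries without an Eno2 read the ratio was set by the pseudocount of 0.5 and the number of Eno1 reads, from 3.51 at 6 Eno1 reads to 7.58 at 109, so the values below are not measured ratios there. Per kb the log2 ratio of Eno1 to Eno2 was 4.81 ± 1.29 (SD, n = 10) in GFP+/lacZ+ and 3.38 ± 1.13 (SD, n = 5) in GFP+/lacZ− libraries, a difference of −1.43 (two-sided exact permutation p 0.0453). With only the libraries that had at least 20 reads for the pair it was −1.92 (9 against 4, with 4 of the 9 without an Eno2 read; exact permutation p 0.0168), and within the limits −1.64 (exact permutation p 0.0571), so the call was lost there. Each single library left out moved the p to between 0.0180 and 0.128, and 9 of the 15 omissions lost the call. Between genotypes the ratio differed by 0.05 in astrocytes (exact permutation p 0.976) and by −0.39 in GFP+/lacZ− libraries (exact permutation p 0.8). Eno1 counts are uncertain: 72.2% of the 50-base stretches of its transcript also occur in other transcripts, and only uniquely aligned reads had been kept. Copies such as Eno1b, whose reads cannot be fully separated from those of Eno1, held 761 reads beside 2311 for Eno1 over all libraries.

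For phosphofructokinase, the committed step of glycolysis, the muscle isoform Pfkm exceeded the platelet isoform Pfkp in every library within the limits. Pfkm had 118 to 198 CPM in the 6 astrocyte libraries and 77.8 to 128 CPM in the 4 GFP+/lacZ− libraries, which overlap slightly. The log2 fold change of Pfkm was −0.88 within the limits (SE 0.33; unadjusted p 0.0182, adjusted p 0.556 by edgeR) and −1.07 over all libraries (SE 1.01), or −0.31 without Eed−/− astrocyte library 4. Pfkp had 15.3 to 52.0 and 8.64 to 29.9 CPM. The log2 ratio of Pfkp to Pfkm per kb was −4.94 ± 0.63 (SD, n = 6) and −4.43 ± 0.78 (SD, n = 4), a difference of 0.51 (two-sided exact permutation p 0.276); over all 15 libraries it was −0.47 (exact permutation p 0.821). Outside the limits there were 122 Pfkp and 0 Pfkm reads in Eed−/− astrocyte library 1, 0 and 339 in library 4, no read of either in library 3, 47 and 60 in Eed+/+ astrocyte library 3, and 6 and 33 in Eed+/+ GFP+/lacZ− library 2. Pfkp shares 748 exon bases (5.58%) with Pitrm1 on the other strand, and Pfkm shares 341 (10.2%) with Gm26513 on its own strand; the counts were unstranded.

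Between genotypes the phosphofructokinase ratio differed by 1.28 in astrocytes (5 against 5; exact permutation p 0.635), where the SD over the Eed−/− libraries was 6.26, and by 0.55 in GFP+/lacZ− libraries (2 against 3; exact permutation p 0.4). Omission of 1 GFP+/lacZ− library gave 0.17 (without Eed+/+ 1), 0.94 (Eed+/+ 2), 0.28 (Eed−/− 1), 0.99 (Eed−/− 2) or 0.39 (Eed−/− 3). The 20 ratio tests over all libraries were 4 pairs in 5 comparisons, and their p-values are not adjusted. Tests repeated within the limits are not among these 20. They include those between the populations with an exact permutation p of 0.00952 (Aldoa to Aldoc) and 0.0476 (Ldha to Ldhb). Of the 20, 3 had p under 0.05 over all libraries: Eno1 to Eno2 and Ldha to Ldhb between the populations, and Ldha to Ldhb between the populations within Eed−/−. The first includes the libraries without an Eno2 read, and the last was lost whichever library was left out, since the smallest exact permutation p is then 0.0571 (4 against 3 libraries) or 0.0952 (5 against 2).

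Pkm and Hk1, which catalyse the last and the first step, were measured without a partner. Pkm was the steadiest of the 10 in astrocytes, at 320 to 422 CPM in the 6 libraries within the limits and 177 to 360 CPM in the 4 outside. Among GFP+/lacZ− libraries it had 237 CPM (Eed+/+ 1) and 495, 556 and 362 CPM (Eed−/− 1 to 3), and 3.18 CPM, from 1 read, in Eed+/+ library 2. Its log2 fold change between the populations was −0.43 (SE 0.91) over all libraries and −0.10 (SE 0.29) within the limits. Hk1 had 55.6 to 119 CPM in the 6 astrocyte libraries and 41.6 to 73.0 CPM in the 4 others (log2 fold change −0.83, SE 0.40, unadjusted p 0.0562 and adjusted p 0.662 by edgeR within the limits; −0.20, SE 1.09, over all). Pkm shares 767 exon bases (15.3%) with Gm49759 on the same strand, and 34.4% of its 50-base stretches also occur in other transcripts. The gene model does not separate the M1 and M2 splice forms of Pkm, whose use differs between cell types.

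Ordered by median level per kb of exon within the limits, the genes ran from Aldoc (889 CPM per kb) over Ldhb (429), Aldoa (229), Ldha (125), Pkm (70.5), Pfkm (53.4), Eno1 (25.4) and Hk1 (9.65) to Eno2 (1.52) and Pfkp (1.33) in astrocytes. In GFP+/lacZ− libraries Ldhb (288 CPM per kb) and Aldoc (256) changed places and the rest kept that order, with Aldoa at 147, Ldha at 107, Pkm at 85.7, Pfkm at 28.8, Eno1 at 18.8, Hk1 at 5.51, Eno2 at 2.55 and Pfkp at 1.55. Neighbours whose ranges overlapped in both populations were Aldoc and Ldhb, Aldoa and Ldha, and Eno2 and Pfkp. In astrocytes those of Ldhb and Aldoa overlapped too, and in GFP+/lacZ− libraries those of Aldoc and Aldoa, of Ldha and Pkm, and of Pfkm and Eno1. Even so, Aldoc exceeded Ldhb in 6 of 6 astrocyte libraries, and Ldhb exceeded Aldoc in 3 of 4 GFP+/lacZ− libraries. Over all 5 GFP+/lacZ− libraries the median of Aldoc (229) lay above that of Ldhb (218). With the longest transcript as length in place of the union of exons, Eno1 moved above Pfkm in both populations.

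**Figure D4:**
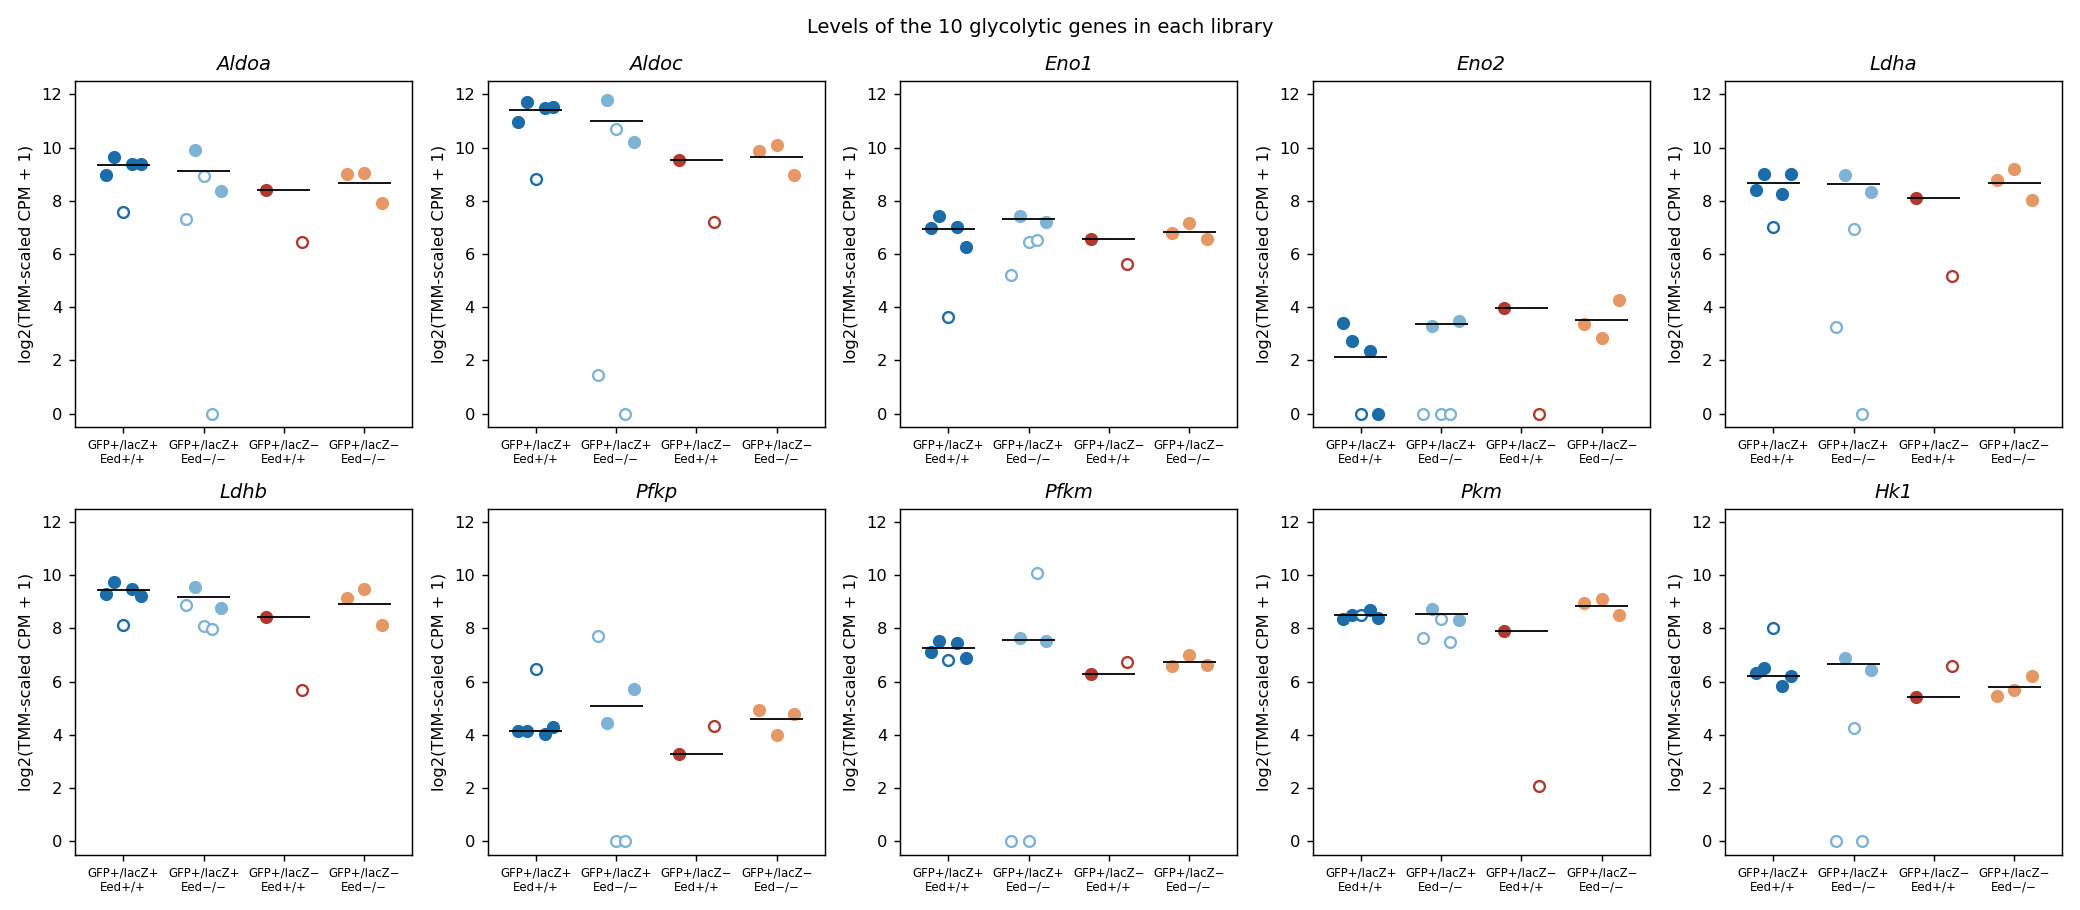
Log2 of TMM-scaled CPM plus 1 for the 10 genes, 1 point per library, by sorted population and Eed genotype. Filled points are libraries within the limits, open points those outside, and lines are means of the plotted values within the limits. The open points fall to 0 CPM for 7 of the 10 genes in at least 1 Eed−/− astrocyte library, and the filled points of Aldoc are the ones that separate the populations.

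Loss of Eed was not accompanied by a called change in any of the 10 genes. In astrocytes 0 of 9 genes tested were called by edgeR (beside 0% of 8956 genes) and 0 had an unadjusted p under 0.05 (beside 1.21%); DESeq2 called 0 of 9 (beside 0.0112%), with 0 at an unadjusted p under 0.05 (beside 3.32%). Eno2 did not pass the filter on low counts in this fit. The median of all genes shifted by −0.54, and the log2 fold changes of the members ranged from −1.31 for Hk1 (SE 1.44) to 1.22 for Pfkm (SE 1.23). Pfkm had 1090 CPM in Eed−/− library 4, which lies outside the limits, and 184 and 198 CPM in libraries 5 and 2. Within the limits (4 against 2 libraries) 8 of the 10 genes changed by less than 0.5 in size, with Aldoa at −0.03 (SE 0.44), Aldoc at −0.23 (SE 0.46), Ldha at −0.01 (SE 0.36), Ldhb at −0.22 (SE 0.35) and Pkm at 0.05 (SE 0.30). The other 2 were Eno2 at 0.96 (SE 1.72) and Pfkp at 1.10 (SE 0.85), the lowest of the 10 in level.

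In GFP+/lacZ− libraries 0 of 10 genes were called by edgeR between genotypes (beside 0% of 11862 genes), and 0 had an unadjusted p under 0.05 (beside 7.27%). DESeq2 called 0 of 10 (beside 0.219%), with 1 at an unadjusted p under 0.05 (beside 9.46%). The log2 fold change was above 0 for 9 of the 10, and the largest were those of Pkm at 1.89 (SE 1.03), Ldha at 1.39 (SE 0.82) and Ldhb at 1.34 (SE 0.82), beside a median of 0.15 over all genes. Eed+/+ library 2, outside the limits with 343640 counts, entered this mean: without it they were 0.96, 0.62 and 0.58. With that library as the only Eed+/+ sample, the lone sample being assumed to vary like the others, 5 of 10 genes (Pkm, Ldha, Ldhb, Aldoc and Aldoa) were called, as were 2601 of 12635 genes.

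Of 38 other genes of glucose uptake, glycolysis, pyruvate entry, glycogen and lactate transport, 30 could be tested between the populations, and 0 were called by edgeR in either direction (beside 0.015% of all genes tested, so that this count says nothing particular about the list). The CPM ranges given next are those of the libraries within the limits, GFP+/lacZ+ before GFP+/lacZ−, and the log2 fold changes come from the fit over all 15 libraries. Slc2a3, the main glucose transporter of neurons, had 0 to 21.6 and 11.9 to 54.6 CPM (log2 fold change 2.75, SE 1.25, unadjusted p 0.0278 and adjusted p 0.781 by edgeR). Slc2a1, the glucose transporter of astrocytes and of the vessel wall, had 38.5 to 181 and 46.5 to 96.6 CPM (−0.88, SE 1.12). The monocarboxylate transporter Slc16a1 had 31.5 to 66.8 and 24.1 to 50.1 CPM (−0.22, SE 1.21). Slc16a7, its neuronal relative, had 0 to 5.10 and 1.58 to 12.7 CPM (1.72, SE 1.35). Hk2 changed by 0.22 (SE 1.24), and the liver isoform Pfkl by −0.03 (SE 1.12). Gapdh was counted at only 2.04 to 33.4 and 4.45 to 36.7 CPM (−0.51, SE 1.32), and 27.8% of its 50-base stretches occur in other transcripts.

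The other comparisons called 0 of the tested genes of that list too: 0 of 30 within Eed+/+, within Eed−/− and for the interaction, 0 of 25 between genotypes in astrocytes and 0 of 28 between genotypes in GFP+/lacZ− libraries, where at most 0.0598% of all genes were called. The median log2 fold change of the list between the populations was −0.08, beside 0.34 over all genes.

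The genes most like Aldoc over the 15 libraries, by Spearman correlation of log2 CPM, were Slc35a2 (rho 0.986), Gm3764 (0.975), Cd63 (0.975), Rnf215 (0.971) and Fads1 (0.968); within the limits the values were 0.988, 0.927, 0.952, 0.976 and 0.939. For Eno2 they were Fgf11 (0.969), Gtf2e1 (0.969), Rnf141 (0.957), Atp7b (0.953) and Zfp334 (0.951), with 0.867 to 0.915 within the limits. The libraries differ in depth, and genes at 0 in the shallow libraries rank low there together. The part of depth in these correlations was not tested.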

How the data were processed

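The authors had sorted GFP+/lacZ+ and GFP+/lacZ− cells, prepared Smart-Seq v2 libraries (unstranded) and aligned reads with STAR to GRCm38 (mm10), keeping uniquely aligned reads only. The deposited files hold raw counts of reads per Ensembl gene, of which the unstranded column was used. Rows of 4 alignment totals were left out; reads outside genes made up 8.55% to 71.6% of uniquely aligned reads in the labelled libraries. Gene names and lengths came from GENCODE vM21 (53274 of 53379 identifiers matched). Of 2 identifiers named Aldoa, the second had at most 13 reads per library and was not added.

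Counts were tested with edgeR 4.0.16 (TMM, filterByExpr, robust quasi-likelihood test, Benjamini-Hochberg adjustment over all genes tested, threshold 0.05; R 4.3.3), with DESeq2 1.42.0 as an alternative. Population contrasts were fitted over 15 libraries in 4 groups, genotype contrasts within a population. Isoform ratios were log2 of counts plus 0.5 per kb, compared by two-sided exact permutation (SciPy 1.17.1); with 1 library on a side p cannot pass 0.05. Intervals are 95% and cover counting error only, since Smart-Seq v2 reads carry no molecular identifiers. Depth was 211736 to 3178529 counts per library, so that 3 counts correspond to 0.944 to 14.2 CPM.

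Groups came from the labels; 1 library whose labels name both cell types entered no comparison. The members, lists and limits were chosen with earlier results of these data known. All 10 members are named; of 38 other pathway genes, up to 4 called per direction and 7 fixed ones are named, and 1 gene of that list is not reported here. For Aldoc and Eno2 the 5 genes of highest Spearman correlation are named. Alternatives were RLE size factors, no filter on low counts, other pseudocounts and lengths, libraries within the limits, sets of library numbers, a replicate block and leaving out each library. Protein sequences were not used here.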

Additional observations from a re-analysis of the deposited data

Results flagged for a closer look

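In 7 of 28 groups of 5 astrocyte libraries tested, a library stood apart by Dixon's criterion at 95%. The groups are the levels of 10 genes and 4 ratios of these genes in the same libraries, so they are not independent. The count can therefore not be set against the 1 in 20 that chance gives in independent groups. In Eed+/+ astrocytes the library that stood apart was replicate 3, outside the limits, in each case: Pfkp at 88.5 CPM, Hk1 at 256 CPM, a log2 ratio of Aldoa to Aldoc per kb of −1.06 and one of Pfkp to Pfkm of −2.35. In Eed−/− astrocytes it was replicate 1 for Pfkp at 211 CPM and for the ratio of Aldoa to Aldoc at 6.10, and replicate 4 for Pfkm at 1090 CPM, both outside the limits. The 6 astrocyte libraries within the limits thus held none of the values that stood apart. In the library without a group, Eno1 had 298 CPM (not TMM-scaled), above the highest Eed+/+ library at 145 CPM.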

How the results depend on the processing

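The cause of the changes below was not tested unless named. The count of the 10 genes called was 0 under every alternative in the 5 comparisons other than that between genotypes in GFP+/lacZ− libraries, where leaving out 1 library gave 0 to 5.

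Log2 ratio differences are given next. Within the limits they were, between the populations, 0.98 for Aldoa to Aldoc, −1.64 for Eno1 to Eno2 and 0.51 for Pfkp to Pfkm; within Eed+/+, 0.011 for Pfkp to Pfkm; within Eed−/−, 0.89 for Aldoa to Aldoc, 0.26 for Ldha to Ldhb and 0.33 for Pfkp to Pfkm; between genotypes, −1.30 for Eno1 to Eno2 and 0.25 for Ldha to Ldhb in astrocytes, and 0.15 for Aldoa to Aldoc and 0.76 for Eno1 to Eno2 in GFP+/lacZ− libraries. With at least 20 reads for the pair, Aldoa to Aldoc differed by 0.044 between the populations, and Eno1 to Eno2 by −0.27 and 0.76 between genotypes in astrocytes and in GFP+/lacZ− libraries (−0.15 and 0.060 with a pseudocount of 1). In the first set of library numbers the differences were −1.25 for Eno1 to Eno2 between the populations, 0.48 for Pfkp to Pfkm within Eed+/+ and 2.19 for Ldha to Ldhb within Eed−/−; in the second set, −0.65 for Eno1 to Eno2 and −3.46 for Pfkp to Pfkm between genotypes in astrocytes.

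The labels do not say whether libraries with the same replicate number share an animal. The correlations of their deviations from group means ranged from −0.26 to 0.17, so they were not treated as pairs, which does not show that they came from different animals. With the replicate block (sign flips within pairs, libraries outside the limits included) the differences were −0.62 for Aldoa to Aldoc (exact permutation p 1) between the populations and −1.74 within Eed−/−. Both are opposite in sign to the values within the limits, as are those over all libraries without the block (−0.06 and −1.06). The difference was above 0 in 4 of 5 pairs of libraries, and in 2 of 3 within Eed−/−. The pair with Eed−/− astrocyte library 1, which had 1 Aldoc read, stood at −6.77. The other differences with the block were −1.25 for Eno1 to Eno2 (exact permutation p 0.25), 1.48 for Ldha to Ldhb (exact permutation p 0.0625, the smallest possible), 0.48 for Pfkp to Pfkm within Eed+/+, 2.19 for Ldha to Ldhb within Eed−/− and 0.16 for Eno1 to Eno2 between genotypes in GFP+/lacZ− libraries. In edgeR with the replicate block the log2 fold change was 0.74 for Hk1 and 2.07 for Pfkm between the populations, and −1.20 for Pfkm and −0.45 for Pfkp between genotypes in astrocytes, and 0 members were called.

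Leaving out 1 library in turn gave, between the populations, −0.19 to 0.70 for Aldoa to Aldoc, −1.78 to −1.12 for Eno1 to Eno2 and −1.30 to 0.63 for Pfkp to Pfkm; within Eed+/+, −0.55 to 0.39 for Pfkp to Pfkm; within Eed−/−, −1.55 to 0.40 for Aldoa to Aldoc, 1.68 to 3.40 for Ldha to Ldhb (its call lost in each case) and −2.92 to 1.42 for Pfkp to Pfkm. Between genotypes in astrocytes it gave 0.52 to 2.47 for Aldoa to Aldoc (exact permutation p 0.0159 without Eed+/+ library 3), −0.28 to 0.75 for Eno1 to Eno2 and −1.03 to 3.30 for Pfkp to Pfkm, and in GFP+/lacZ− libraries −0.22 to 0.15 for Aldoa to Aldoc and −1.53 to 0.76 for Eno1 to Eno2.

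For single genes, other signs were seen between the populations for Ldha without a filter (0.020) and over omissions of 1 library for Eno1 (−0.50 to 0.0057), Eno2 (−1.94 to 1.67), Hk1 (−0.54 to 0.15), Ldha (−1.11 to 0.40) and Pkm (−3.04 to 0.067). Between genotypes in astrocytes they were seen for Eno1 (−0.58 in the first set, −0.0074 without a filter, −0.090 to 0.40 over omissions), Pfkm (−1.31 in the first set, −0.59 to 1.60 over omissions), Pfkp (−0.66 in the second set, −0.74 to 1.97 over omissions), Hk1 (0.46 within the limits) and Pkm (0.053 within the limits, 0.0863 with RLE size factors and 0.0865 with DESeq2). In GFP+/lacZ− libraries they were seen for Eno2 (−0.40 within the limits, −0.40 to 6.84 over omissions), Hk1 (0.39 within the limits, −0.90 to 0.39 over omissions) and Pfkm (−0.094 to 0.43 over omissions). Omissions also gave 0.30 to 2.19 for Aldoa, 0.14 to 2.40 for Aldoc, 0.62 to 3.49 for Ldha, 0.58 to 3.24 for Ldhb and 0.96 to 7.05 for Pkm there, the highest always without Eed+/+ library 1, where these 5 were called. The alternatives not named kept the direction.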

Other observations

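The library whose labels name both cell types had 221456 counts in genes, and 17.7% of its reads were uniquely aligned, the lowest share of the 16 libraries. It held 101 Aldoa and 293 Aldoc reads, so that Aldoa made up 25.6% of the pair (exact 95% interval 21.4% to 30.2%), between the ranges of both populations within the limits. Ldha had 81 reads and Ldhb 6, a share of 93.1% (85.6% to 97.4%) that no labelled library reached. Eno1 had 66 reads and Eno2 0. Pfkp, Pfkm, Pkm and Hk1 had 0 reads, which allows up to 13.5 CPM each.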
